A study of Homo sapiens with 12 samples.

Results

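The genes described are 9 of the NRF2 pathway, the cell's main transcriptional defence against oxidants and electrophiles: NFE2L2, KEAP1, NQO1, HMOX1, GCLM, TXNRD1, SRXN1, AKR1C1 and AKR1B10. They were taken by their symbols from a table of 61806 genes, and each symbol had 1 row. The table covers 12 RNA-seq libraries from 2 established cell lines of human papillary thyroid cancer, TPC-1 and K1, which come from different tumours. Cells of each line were transfected either with a negative control siRNA (labelled WT) or with an siRNA against TRIM35, a gene for a TRIM-family ubiquitin ligase (labelled TRIM35 knockdown), and collected after 24 h, with 3 libraries in each of the 4 groups. No untransfected cells are among them, so every group had been exposed to a transfected siRNA, and no group had received an oxidant or an NRF2 activator.

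NFE2L2 encodes NRF2, a transcription factor that is degraded in unstressed cells because KEAP1, the adaptor of a ubiquitin ligase, holds it. Oxidants and electrophiles modify KEAP1, NRF2 then builds up, pairs with small MAF proteins and binds antioxidant response elements in its target genes. The pathway is regulated largely at the level of the NRF2 protein, which RNA-seq does not measure. The other 7 genes are used as its readouts: NQO1 reduces quinones, HMOX1 breaks down haem, GCLM is the modifier subunit of the enzyme that begins glutathione synthesis, TXNRD1 reduces thioredoxin, SRXN1 restores over-oxidised peroxiredoxins, and AKR1C1 and AKR1B10 are aldo-keto reductases that act on steroids and carbonyls. In thyroid cells the pathway is known for handling the hydrogen peroxide that hormone synthesis uses.

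Libraries held between 16705044 and 22928861 counts, with a count above 0 for between 22526 and 28045 genes. The third TPC-1 control library carries TPC-3 in its title and TPC-1 in its other labels; its NQO1 and AKR1C1 levels, 169.36 and 0.02 FPKM, lay within the range of the other TPC-1 libraries. TRIM35 itself was at 2.86, 2.91 and 3.06 FPKM in TPC-1 control and 2.34, 2.56 and 2.58 in TPC-1 TRIM35 siRNA libraries, and at 1.51, 1.85 and 1.47 against 1.20, 1.49 and 1.53 in K1. The siRNA groups were lower by 0.24 ± 0.16 (SE) in TPC-1 and 0.19 ± 0.17 in K1 on the log2 scale, neither past the threshold (adjusted p of 1 for both, edgeR's quasi-likelihood test). All 3 TPC-1 siRNA libraries lay below all 3 TPC-1 control libraries, and with the library number as a block the TPC-1 difference was -0.24 ± 0.16 (adjusted p of 1). Of 8 thyroid lineage markers, PAX8, FOXE1 and HHEX averaged at least 1 FPKM in each group, and NKX2-1 was listed at 0 in all 12 libraries. The summed FPKM of the thyroid markers was 24.78 to 28.83 in TPC-1 and 111.42 to 146.38 in K1. Summed leukocyte markers stood at 0.22 to 0.68 in TPC-1 and 4.39 to 6.17 in K1, most of the latter CD14, with CD3E at or near 0. Endothelial markers came to 0.08 to 0.11 against 1.42 to 2.00, fibroblast markers to 0.13 to 0.55 against 0.77 to 1.32, and epithelial markers to 37.13 to 46.78 against 49.49 to 76.83. The part of these markers in the line differences was not tested, and in bulk libraries more cells with a transcript and more transcript per cell cannot be told apart.

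The level of the 9 genes, in FPKM (counts scaled to gene length and library size), differed widely among them, and the order differed between the lines. The length is the deposited exonic size, from 1773 bases for AKR1B10 to 14975 for NFE2L2, and the order of genes depends on it. In TPC-1 control libraries NQO1 stood first at 181 ± 10.4 (SD, n = 3), followed by TXNRD1 at 92.6 ± 13.3, GCLM at 33.8 ± 0.779, HMOX1 at 18.5 ± 2, NFE2L2 at 15.6 ± 1.3 and KEAP1 at 11.2 ± 0.981. AKR1B10 at 1.12 ± 0.15 and SRXN1 at 0.803 ± 0.215 overlapped in range, and AKR1C1 was last at 0.02 FPKM in all 3 libraries. In K1 control libraries TXNRD1 led at 50.8 ± 2.06, ahead of GCLM at 39.9 ± 1.8 and NQO1 at 24.5 ± 3.65. NFE2L2 at 13.1 ± 0.486, HMOX1 at 12 ± 1.48 and KEAP1 at 9.2 ± 1.37 were neighbours whose ranges overlapped, and below them came AKR1C1 at 1.44 ± 0.172, SRXN1 at 0.33 ± 0.0866 and AKR1B10 at 0.0967 ± 0.0252. NQO1 thus stood first in TPC-1 and behind TXNRD1 and GCLM in K1, and the 2 aldo-keto reductases changed places. Under TRIM35 siRNA the order of the 9 genes by mean was the same as under control siRNA in both lines.

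**Figure D1:**
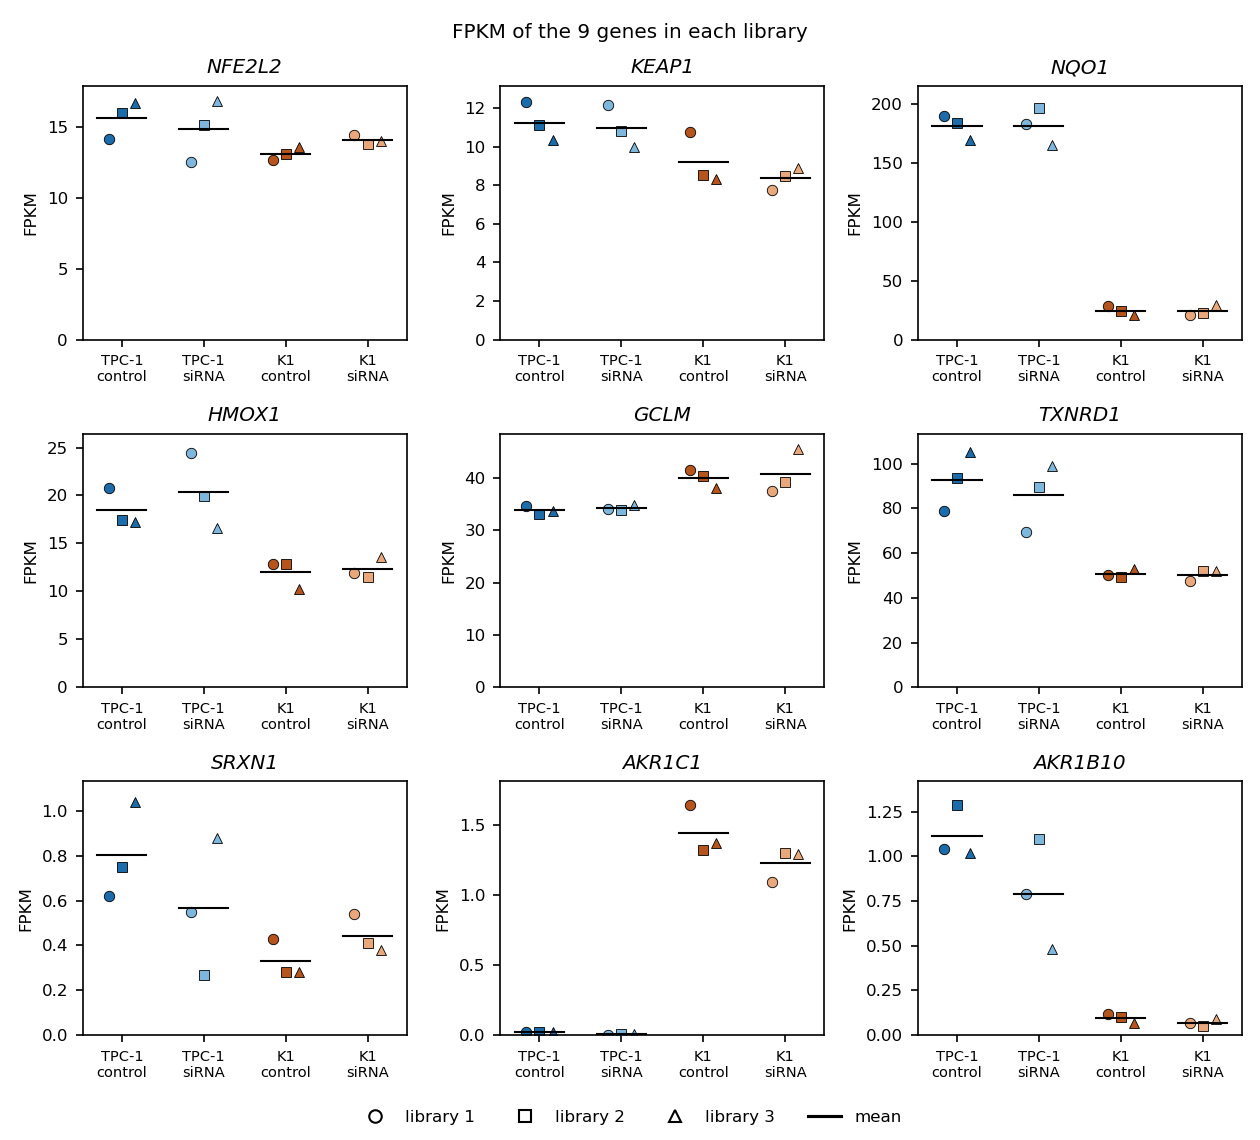
FPKM of each of the 9 genes (vertical axes, from 0) in the 12 libraries, grouped by line and siRNA on the horizontal axes; symbols are libraries 1 to 3 and the bars are group means. NQO1 lies between 164.96 and 196.31 in the TPC-1 libraries and between 20.95 and 29.06 in the K1 libraries, whereas control and siRNA groups of a line lie close together.

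Sequence near the start of the genes is shown for the members that bear on the line comparison. RefSeq promoter windows (250 bases before to 50 after an annotated start, GRCh38.p14) were found for 7 of the 9 genes, in 10 windows; HMOX1 and AKR1B10 were not matched. The core of the antioxidant response element, searched as TGACNNNGC on both strands, occurred 6 times in 4 of these windows, belonging to KEAP1, GCLM and TXNRD1. It is a common pattern, present in 13.3% of 35116 windows of the same length. A match is a description of letters, not a shown binding site. The matches follow with 10 bases on either side, 5′ to 3′ on the strand that carries the core, which is in capitals.
GCLM: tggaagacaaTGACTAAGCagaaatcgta
KEAP1 core A: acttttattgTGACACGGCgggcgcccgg
KEAP1 core B: caggtcaccaTGACTAAGCagagccgggc
TXNRD1 core A: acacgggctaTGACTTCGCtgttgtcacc
TXNRD1 core B: ctgtgggaacTGACGGAGCcgaaggacgc
TXNRD1 core C: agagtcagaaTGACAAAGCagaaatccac
The GCLM core, at chr1:93909456-93909464, lies 34 bases before the start on the strand opposite to the gene. The same 9 letters stand in KEAP1 core B at chr19:10502794-10502802, 31 bases before a start that lies within the gene body of the deposited annotation, and KEAP1 core A is at chr19:10502817-10502825. TXNRD1 cores A, B and C are at chr12:104215680-104215688, 99 bases before the upstream start, at chr12:104215771-104215779, 8 bases before it, and at chr12:104286930-104286938, 102 bases before another start inside the gene. The AP-1 site TGACTCA, whose letters can overlap the core as TGACTCAGC, was found in none of the 10 windows; it is in 4.95% of all windows and the joint form in 0.561%.

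The windows of NFE2L2, NQO1, SRXN1 and AKR1C1 held no match to the core. NQO1 and AKR1C1 are, with AKR1B10, the members with the widest gaps between the lines, and for both the sequence just upstream of the deposited gene model is given. It covers 142 bases at chr16:69726669-69726810 (minus strand) for NQO1 and 88 bases at chr10:4963165-4963252 (plus strand) for AKR1C1, with no letters in capitals because neither holds a match.
NQO1 upstream: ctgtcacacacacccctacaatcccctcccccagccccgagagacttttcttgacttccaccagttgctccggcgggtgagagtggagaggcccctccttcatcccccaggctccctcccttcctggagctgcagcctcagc
AKR1C1 upstream: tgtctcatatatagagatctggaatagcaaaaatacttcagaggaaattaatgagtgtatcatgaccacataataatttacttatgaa
The absence of these letters covers only this stretch and says nothing of sites farther away.

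The first question was how the pathway's genes differ between the lines in cells given control siRNA. K1 had lower levels of 7 of the 9 genes and a higher level of AKR1C1, while GCLM did not pass the test. These 8 calls of 9, at a Benjamini-Hochberg adjusted p under 0.05 in edgeR, stand beside a background of 67.9% of all 17447 genes tested that were called between the lines, 32.1% lower and 35.8% higher in K1. AKR1C1 and AKR1B10 passed the filter on low counts through 1 line only, so they could enter the test only by differing, and their calls support nothing; the other 7 genes passed in every group. The lines are far apart across the transcriptome, and a call for a member is not particular to the pathway. The median log2 difference of the members was -0.72, against 0.06 for all genes tested. After TMM scaling the libraries of the lines did not overlap for 8 of the 9 genes, all but KEAP1, beside 72.6% of all genes. Whether the 3 libraries of a group came from separate cultures is not given, so the spread behind each p-value is that of these libraries and may be technical.

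NFE2L2 and KEAP1, the effector and its sensor, differed between the lines by small amounts. NFE2L2 (ENSG00000116044, chr2:177218667-177392756, minus strand) was at 14.15, 15.93 and 16.69 FPKM in TPC-1 control libraries and at 12.62, 13.05 and 13.59 in K1. All K1 libraries lay below all TPC-1 libraries, and the log2 difference of K1 minus TPC-1 was -0.35 ± 0.13 (SE; 1.28-fold; adjusted p = 0.0274). That call was lost under upper-quartile scaling (-0.21, adjusted p = 0.11), without a filter on low counts (-0.33, adjusted p = 0.085), in both limma fits of FPKM, and without any 1 of TPC-1 control libraries 2 and 3 or K1 control libraries 1, 2 and 3 (-0.29 to -0.35, adjusted p from 0.0521 to 0.089). KEAP1 (ENSG00000079999, chr19:10486125-10503558, minus strand) was at 12.29, 11.12 and 10.34 FPKM in TPC-1 and 10.78, 8.52 and 8.31 in K1. K1 library 1 lay inside the TPC-1 range, and the log2 difference was -0.38 ± 0.15 (1.3-fold; adjusted p = 0.0306). It missed the threshold under upper-quartile scaling (-0.24, adjusted p = 0.143), with no filter (-0.36, adjusted p = 0.0742), and without TPC-1 control library 1 or 2 or K1 control library 2 or 3 (adjusted p from 0.0596 to 0.13). The ratio of NFE2L2 to KEAP1 in FPKM was 1.4 ± 0.233 (SD, n = 3) in TPC-1 and 1.45 ± 0.244 in K1, and its ranges overlapped between the lines. The size of this ratio depends on the deposited exonic sizes, 14975 bases for NFE2L2 and 3573 for KEAP1. Summed counts were 12752 against 2198 in TPC-1 and 12126 against 2063 in K1 control libraries. Without stranded counting, reads at the ends of NFE2L2 cannot be told from those of HNRNPA3 and AGPS, which overlap it on the opposite strand, and 15.6% of the 50-base words of its transcripts in GENCODE 29 occur in other genes.

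NQO1 showed the widest difference among the well-expressed members. NQO1 (ENSG00000181019, chr16:69706996-69726668, minus strand), which reduces quinones directly to hydroquinones, was at 189.50, 184.22 and 169.36 FPKM in TPC-1 control libraries and at 28.26, 24.21 and 20.97 in K1. The groups did not come near each other: the lowest TPC-1 library held several times the level of the highest K1 library. The log2 difference was -2.98 ± 0.18 (7.87-fold; adjusted p = 9.23e-10), and over the 8 alternatives that kept all libraries of the comparison it lay between -2.98 and -2.84. Its relative NQO2 was at 11.2 ± 0.779 FPKM in TPC-1 and 7.88 ± 1.27 in K1, a log2 difference of -0.60 ± 0.18 (adjusted p = 0.00776). The NQO1 to NQO2 ratio was accordingly 16.1 ± 0.454 in TPC-1 and 3.12 ± 0.198 in K1.

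TXNRD1 and SRXN1, the members that serve thioredoxin and the peroxiredoxins, were both called lower in K1 in control libraries. TXNRD1 (ENSG00000198431, chr12:104215779-104350307, plus strand), the cytosolic selenoenzyme that passes electrons from NADPH to thioredoxin, was at 78.72, 93.84 and 105.15 FPKM in TPC-1 control libraries and at 50.25, 49.15 and 53.13 in K1. All K1 libraries were below all TPC-1 libraries, with a log2 difference of -0.96 ± 0.16 (1.95-fold; adjusted p = 6.62e-05). Its mitochondrial relative TXNRD2 was lower in K1 too, 4.13 ± 0.346 against 2.61 ± 0.238 FPKM (log2 difference -0.75 ± 0.15, adjusted p = 0.000297), and the TXNRD1 to TXNRD2 ratio was 22.4 ± 2.83 in TPC-1 and 19.6 ± 1.9 in K1, overlapping between the lines. TXNRD3 was at 2.26 ± 0.488 and 2.3 ± 0.523 FPKM (log2 difference -0.08 ± 0.19, adjusted p = 0.723), a difference whose sign changed under other scalings. SRXN1 (ENSG00000271303, chr20:646615-653200, minus strand) was scarce, at 29, 34 and 48 counts in TPC-1 control libraries and 25, 16 and 12 in K1, or 0.62, 0.75 and 1.04 against 0.43, 0.28 and 0.28 FPKM. The groups did not overlap, and the log2 difference was -1.35 ± 0.40 (2.55-fold; adjusted p = 0.00752). In GENCODE 29, 84.7% of the SRXN1 transcript's 50-base words also lie in a longer gene model on the same strand (ENSG00000270299), which held 0 to 6 counts per library; how reads of the shared exon were assigned is not given, so the SRXN1 level is uncertain.

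HMOX1 and GCLM, often used side by side as NRF2 readouts, did not move alike. HMOX1 (ENSG00000100292, chr22:35380361-35394214, plus strand), the inducible haem oxygenase, was at 20.81, 17.43 and 17.26 FPKM in TPC-1 control libraries and at 12.82, 12.85 and 10.28 in K1. The K1 libraries lay below the TPC-1 libraries without overlap, with a log2 difference of -0.72 ± 0.16 (1.64-fold; adjusted p = 0.00109). The constitutive haem oxygenase HMOX2 was at 10.1 ± 1.21 FPKM in TPC-1 and 3.55 ± 0.745 in K1 (log2 difference -1.59 ± 0.20, adjusted p = 3.28e-06), so that the HMOX1 to HMOX2 ratio was 1.85 ± 0.289 in TPC-1 and 3.42 ± 0.375 in K1.

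GCLM (ENSG00000023909, chr1:93885199-93909456, minus strand) was at 34.60, 33.06 and 33.62 FPKM in TPC-1 control libraries and at 41.54, 40.27 and 37.98 in K1, each K1 library above each TPC-1 library. The log2 difference was 0.15 ± 0.13 (1.11-fold; 95% interval -0.12 to 0.42; adjusted p = 0.316), and GCLM was called higher in K1 under upper-quartile scaling (0.29, where the median of all genes was 0.20; adjusted p = 0.0261) and in limma fits of log2 FPKM with pseudocounts of 0.1 and 1 (0.24 in both, adjusted p = 0.0226 and 0.0246). GCLC, the catalytic subunit of the same glutamate-cysteine ligase, was lower in K1: 5.36 ± 0.373 FPKM in TPC-1 against 2.58 ± 0.0611 in K1, a log2 difference of -1.15 ± 0.12 (2.22-fold; adjusted p = 3.42e-07). The FPKM ratio of modifier to catalytic subunit was therefore 6.99, 6.07 and 5.92 in TPC-1 control libraries and 16, 15.3 and 15.1 in K1, with no overlap. These ratios were 7.28, 6.64 and 6.77 in TPC-1 and 13.3, 14.6 and 18.3 in K1 under TRIM35 siRNA, again without overlap.

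**Figure D2:**
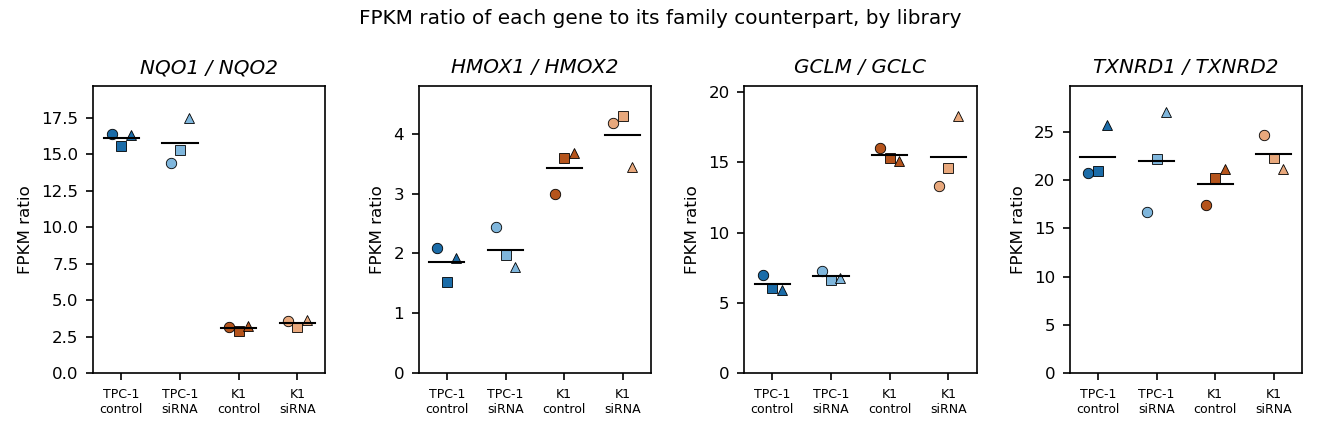
Ratio of FPKM (vertical axes, from 0) of NQO1, HMOX1, GCLM and TXNRD1 to the other member of each family or enzyme, by line and siRNA; circles, squares and triangles are libraries 1, 2 and 3 and the bars are group means. The NQO1 ratio is lower in K1 (3.12 against 16.1 in control libraries), the HMOX1 and GCLM ratios are higher, and the TXNRD1 ratio overlaps between the lines.

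The aldo-keto reductases were nearly a matter of presence in 1 line and absence in the other, in opposite directions. AKR1C1 (ENSG00000187134, chr10:4963253-4983283, plus strand), a 20-alpha-hydroxysteroid dehydrogenase and a widely used NRF2 target, had 3, 3 and 3 counts in TPC-1 control libraries and 329, 261 and 201 in K1. The summed, depth-scaled count was 77.3 times higher in K1 (exact 95% interval 40.5 to 169.7, counting error only), and the fitted log2 difference was 6.12 ± 0.30 (adjusted p = 5.45e-11). Its neighbours in the AKR1C cluster pointed the same way: AKR1C2 had 131 counts over the K1 control libraries and 0 over those of TPC-1, at least 38.4-fold higher when the 0 is set to 3 counts summed over the 3 libraries, and AKR1C3 was at 5.03 ± 0.642 against 2.67 ± 0.236 FPKM (log2 difference 0.82 ± 0.18, adjusted p = 0.00083). AKR1C4 had 12 counts against 0, at least 3.52-fold higher. Since 28.3% of the 50-base words of AKR1C1 transcripts also occur in AKR1C2, and 16.5% of the 100-base words, the division of reads between these copies is uncertain. AKR1C1 at 1.44 FPKM, by an exonic size of 8765 bases, was still low in K1. It lay below AKR1C3 in FPKM and in summed control counts, 791 against 1237.

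AKR1B10 (ENSG00000198074, chr7:134527567-134541412, plus strand), which reduces retinal and other carbonyls, went the opposite way, with 34, 41 and 33 counts in TPC-1 control libraries and 5, 4 and 2 in K1. The groups did not overlap, and the log2 difference was -3.53 ± 0.45 (11.6-fold; adjusted p = 4.58e-06). Its close relative AKR1B1, aldose reductase, was higher in K1, at 372 ± 29.5 against 157 ± 13.3 FPKM (log2 difference 1.16 ± 0.16, adjusted p = 1.12e-05). AKR1B15 had 21 counts in K1 and 1 in TPC-1, a ratio of 18.5 (exact 95% interval 2.97 to 764). Of the AKR1B10 transcript words of 50 bases, 9.69% occur in AKR1B15. On the log2(FPKM + 1) scale, which understates changes of low genes, the limma fit gave control differences of 1.26 for AKR1C1 and -0.95 for AKR1B10 (1.14 and -0.73 in the siRNA libraries), still called.

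The K1 and TPC-1 libraries with TRIM35 siRNA share no library with the control ones and give the same measure again, in the same 2 lines. The 2 sets are not independent, since 1 fit gave both and same-numbered TPC-1 libraries varied together across them. In the siRNA set 6 of 9 genes were called (1 higher and 5 lower in K1), beside 68.3% of all genes (35.9% higher, 32.4% lower). NQO1 had 183.27, 196.31 and 164.96 FPKM in TPC-1 and 20.95, 22.87 and 29.06 in K1, a log2 difference of -2.98 ± 0.18 (adjusted p = 8.83e-10). For the aldo-keto reductases the counts were 0, 1 and 1 in TPC-1 against 160, 241 and 210 in K1 for AKR1C1 (ratio 334, exact 95% interval 91.9 to 2760), and 26, 40 and 19 against 2, 2 and 3 for AKR1B10 (log2 difference -3.51 ± 0.50, adjusted p = 1.30e-05). In TXNRD1, 69.49, 89.41 and 99.20 FPKM stood against 47.52, 51.88 and 51.93 (-0.86 ± 0.16, adjusted p = 0.000183). HMOX1 was at 24.47, 19.91 and 16.56 FPKM against 11.93, 11.47 and 13.56 (-0.81 ± 0.16, adjusted p = 0.000408), and KEAP1 at 12.14, 10.82 and 9.98 against 7.78, 8.50 and 8.89 (-0.47 ± 0.15, adjusted p = 0.00924). TMM-scaled levels did not overlap between the lines for these 6 of the 9 genes, beside 68.4% of all genes. The 6 genes were called in the same direction in both sets of libraries. Over all genes tested, 29.6% were called lower in both sets and 32.9% higher in both. AKR1C1 and AKR1B10, among the 6, entered the test through 1 line only, so their calls and gaps support nothing here either.

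The other 3 genes did not pass in the TRIM35 siRNA libraries. NFE2L2 was at 12.52, 15.13 and 16.80 FPKM in TPC-1 and at 14.38, 13.81 and 14.02 in K1, where the K1 libraries fell inside the TPC-1 range (log2 difference -0.17 ± 0.13, adjusted p = 0.267). It was called without TPC-1 siRNA library 1 (-0.30, adjusted p = 0.0281). SRXN1 had 26, 14 and 50 counts in TPC-1 and 23, 22 and 18 in K1 (-0.45 ± 0.40, adjusted p = 0.327), and without TPC-1 siRNA library 3, which alone held 50 counts, the difference was 0.03. GCLM was at 34.08, 33.85 and 34.87 FPKM against 37.56, 39.23 and 45.48, higher in K1 in FPKM but overlapping after TMM scaling (0.16 ± 0.13, 95% interval -0.11 to 0.44, adjusted p = 0.264). Under upper-quartile scaling and in the limma fits GCLM was called higher in K1 here too (0.29, 0.24 and 0.24). The line differences of NFE2L2 and SRXN1 in the siRNA libraries differed from those in control libraries by 0.18 ± 0.19 and 0.90 ± 0.57, neither past the threshold (adjusted p of 1 for both).

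**Figure D3:**
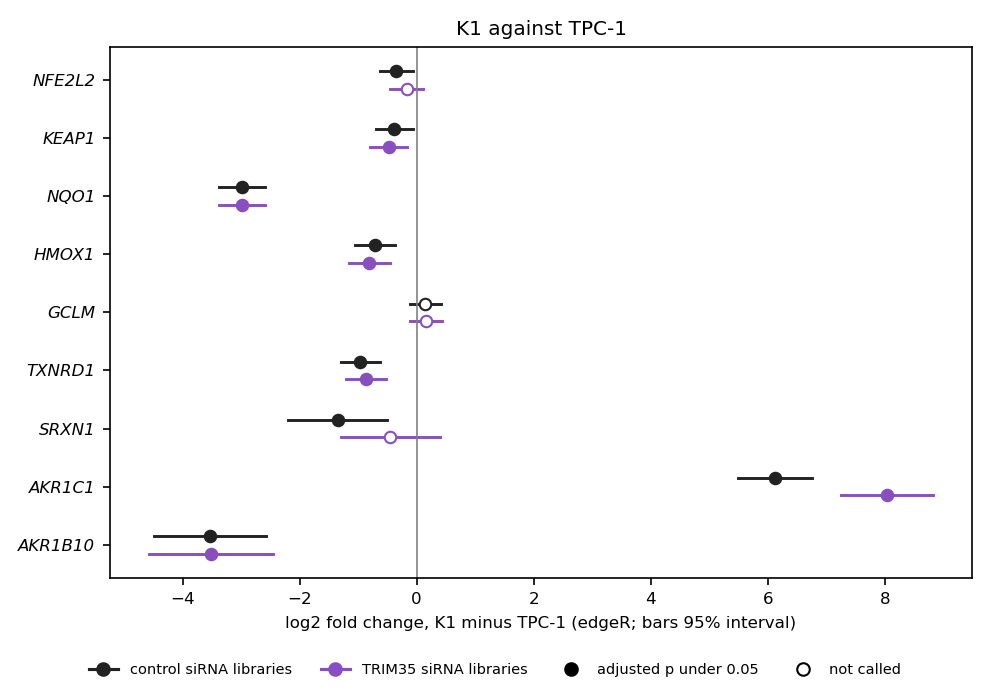
Log2 fold change of K1 minus TPC-1 (horizontal axis) for each gene, in control siRNA and in TRIM35 siRNA libraries; points are edgeR estimates, bars are 95% intervals, and filled points have an adjusted p under 0.05. NQO1 at -2.98 and AKR1B10 at -3.53 lie far to the left and AKR1C1 at 6.12 far to the right in control libraries, while NFE2L2, KEAP1 and GCLM lie near 0.

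The pathway's other genes were called in both directions. Of 92 further genes in 8 lists by role, 84 were tested; 38 were lower and 26 higher in K1 control libraries and 20 were not called, with a median log2 difference of -0.25. In the TRIM35 siRNA libraries 40 were lower, 26 higher and 18 not called. Of all genes tested, 32.1% were called lower and 35.8% higher in K1 in control libraries, and 32.4% and 35.9% in the siRNA libraries. The counts of the lists that follow are read against the former pair. Genes nearly absent from a line could be tested only through the other, so their calls support nothing. AKR1C2, ALDH1A1, GSTM2 and GSTM3 are among them, all counted as higher, with at most 9 counts summed over either TPC-1 group.

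Among 14 other regulators of NRF2 and KEAP1, 8 were higher and 4 lower in K1 (median 0.36). BACH1, a repressor that competes with NRF2 for antioxidant response elements, was at 13.4 ± 1.4 FPKM in K1 and 3.97 ± 0.469 in TPC-1 (log2 difference 1.65 ± 0.13, adjusted p = 1.22e-08). Its relative BACH2 was higher by 3.20 ± 0.23 (adjusted p = 5.55e-09), at 1.49 against 0.15 FPKM; on the log2(FPKM + 1) scale the difference was 1.11. The small MAF partners MAFF, MAFG and MAFK were each higher in K1, by 1.17, 1.00 and 0.67, as was SQSTM1, the autophagy receptor p62 that binds KEAP1, by 0.79. NFE2L3, a relative of NFE2L2, was lower in K1, at 5.7 ± 0.254 against 17.3 ± 2.18 FPKM (-1.69 ± 0.16, adjusted p = 1.80e-07), and so was the KEAP1-binding phosphatase PGAM5 (-1.21 ± 0.14, adjusted p = 1.02e-06). NFE2L1 was higher by 0.31 ± 0.13 (adjusted p = 0.0418), a call that was lost without the filter on low counts (0.33, adjusted p = 0.0891) and without any 1 of TPC-1 control libraries 1 and 2, K1 control libraries 1, 2 and 3 or K1 siRNA libraries 1 and 2 (adjusted p from 0.0514 to 0.0958).

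Of 21 other glutathione genes tested, 7 were higher, 6 lower and 8 not called (median -0.05). The higher ones include GSTM2 and GSTM3, which were tested through K1 only, so their calls support nothing. SLC7A11, the cystine transporter that feeds glutathione synthesis and a known NRF2 target, was at 0.707 ± 0.127 FPKM in K1 and 7.74 ± 1.39 in TPC-1, a log2 difference of -3.56 ± 0.18 (11.8-fold; adjusted p = 8.25e-11). Its partner chain SLC3A2 was lower too (18.7 against 43 FPKM, -1.29 ± 0.13, adjusted p = 2.00e-07). The glutathione S-transferase GSTM3 had 1618 counts in K1 against 9 in TPC-1 (ratio 158, exact 95% interval 83.1 to 347). On the log2(FPKM + 1) scale the differences were -2.35 for SLC7A11 and 2.64 for GSTM3. GPX4, which removes lipid peroxides, was higher in K1 at 147 ± 31.4 against 44.2 ± 6.85 FPKM (1.65 ± 0.23, adjusted p = 1.23e-05).

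Of 11 other thioredoxin and peroxiredoxin genes, 8 were lower in K1, 2 higher and 1 not called (median -0.68). Thioredoxin itself, TXN, was at 593 ± 163 FPKM in TPC-1 and 133 ± 31.7 in K1 (-2.23 ± 0.30, adjusted p = 6.81e-06), PRDX1 at 439 ± 23 and 170.4 ± 19.3 (-1.46 ± 0.17, adjusted p = 1.40e-06), and PRDX3 at 108 ± 5.44 and 37.6 ± 3.04 (-1.62 ± 0.17, adjusted p = 5.43e-07). The higher ones were PRDX5 (1.77 ± 0.23, adjusted p = 4.87e-06) and TXNIP, the inhibitor of thioredoxin (162 ± 8.78 against 32.3 ± 5.25 FPKM, 2.23 ± 0.15, adjusted p = 3.50e-09). In the list for NADPH supply, 7 of 8 genes were lower in K1 and none was higher (median -1.09). MTHFD2, IDH2 and IDH1 were lower by 1.88, 1.53 and 1.21, and PGD did not pass (0.10 ± 0.13, adjusted p = 0.499).

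Of 9 other haem and iron genes, 5 were lower, 2 higher and 2 not called (median -0.68). FECH, the last enzyme of haem synthesis, and SLC48A1, a haem transporter, were lower by 1.99 and 1.58, whereas the ferritin heavy chain FTH1 was at 1057 ± 174 FPKM in K1 against 217 ± 34.3 in TPC-1 (2.19 ± 0.20, adjusted p = 9.70e-08). The light chain FTL was at 952 ± 166 against 1217 ± 171 FPKM (-0.44 ± 0.20, adjusted p = 0.0634), so the FTH1 to FTL ratio was 1.11 ± 0.0844 in K1 and 0.182 ± 0.0463 in TPC-1. Among 12 other quinone and carbonyl reductases tested, 4 were higher and 5 lower (median -0.03). The higher ones include AKR1C2 and ALDH1A1, which were tested through K1 only, so their calls support nothing. CBR3 was at 2.09 ± 0.847 against 14.7 ± 4.57 FPKM (-2.88 ± 0.37, adjusted p = 4.54e-06), and ALDH3A2 was lower by 1.57. Of 6 exporters of conjugates, ABCG2 and ABCC3 were higher by 2.78 and 1.94 (1.27 for ABCC3 on the log2(FPKM + 1) scale), and ABCC4 and ABCC1 were at -2.07 and -0.52. Of 3 tested genes for superoxide and peroxide removal, mitochondrial SOD2 was higher (124 ± 3.72 against 12.4 ± 0.537 FPKM, 3.22 ± 0.14, adjusted p = 1.84e-11), cytosolic SOD1 was lower (-1.43 ± 0.25, adjusted p = 9.47e-05), and CAT did not pass (-0.02 ± 0.12, adjusted p = 0.878), its sign changing under other scalings.

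**Figure D4:**
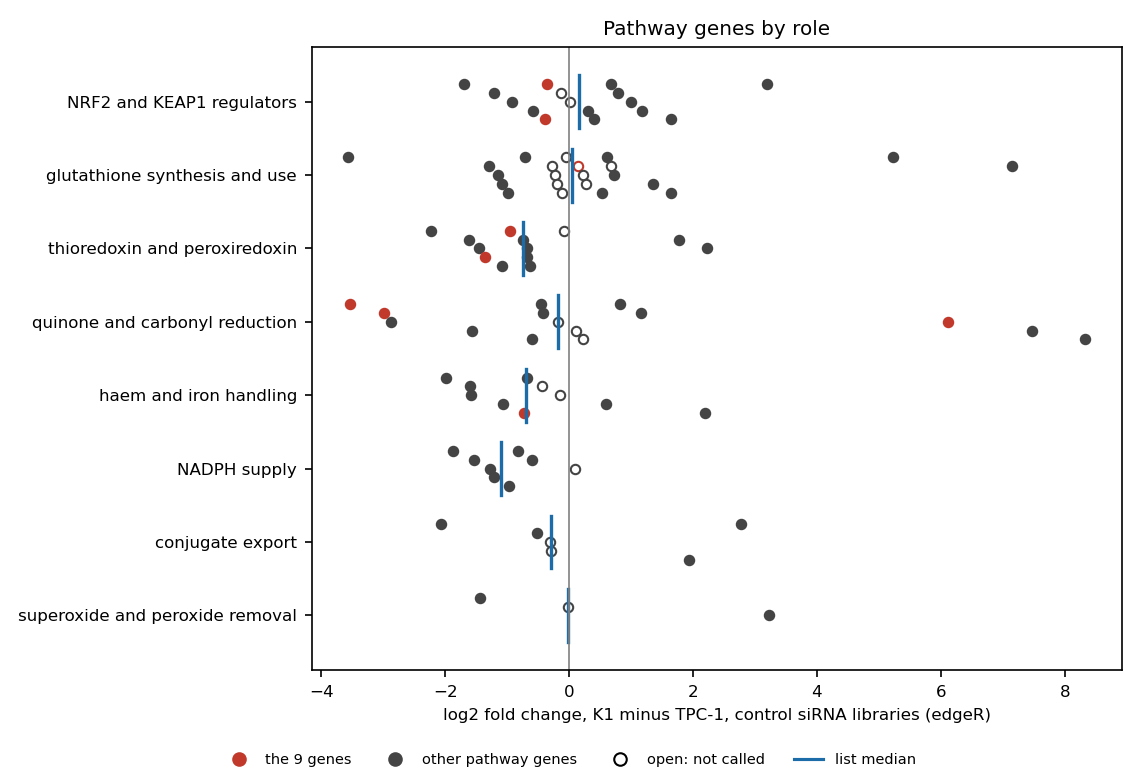
Log2 fold change of K1 minus TPC-1 in control siRNA libraries (horizontal axis, edgeR) for the tested genes of 8 lists by role; red points are the 9 genes, grey points the other pathway genes, open points were not called, and the vertical bars are list medians including the 9 genes. The NADPH list holds 7 called genes below 0 and none above, and the regulators hold 8 called genes above 0 and 6 below. Of all genes tested, 35.8% were called higher and 32.1% lower in K1.

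The second question was whether TRIM35 siRNA altered these genes. In edgeR's quasi-likelihood test none of the 9 was called in TPC-1 or in K1. None was called for a difference in response between the lines. TRIM35 itself was not called either, with log2 effects of -0.24 ± 0.16 in TPC-1 and -0.19 ± 0.17 in K1. The background was 0% in all 3 comparisons, since none of the 17447 genes was called in any of them. At an unadjusted p under 0.05, AKR1C1 alone was below the mark in TPC-1, none in K1 and AKR1C1 alone for the difference between the lines, 1, 0 and 1 of 9 genes beside 1.93%, 0.780% and 1.73% of all genes; DESeq2 also called 0 of the 9. The median log2 effect of the members was -0.07 in TPC-1 and -0.00 in K1, against 0.00 and -0.00 for all genes tested.

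For the well-counted members the intervals limit the possible effect. In TPC-1 NQO1 was at 189.50, 184.22 and 169.36 FPKM with control siRNA and 183.27, 196.31 and 164.96 with TRIM35 siRNA, a log2 effect of 0.01 ± 0.17 (95% interval -0.35 to 0.37), and in K1 the effect was -0.00 ± 0.17 (-0.37 to 0.36). GCLM had effects of 0.02 ± 0.13 (-0.25 to 0.29) and 0.04 ± 0.13 (-0.23 to 0.31) in TPC-1 and K1. The corresponding values were -0.07 ± 0.13 (-0.35 to 0.21) and 0.11 ± 0.13 (-0.17 to 0.39) for NFE2L2. Each of these intervals contains 0 and leaves room for effects of up to about the size of its bounds, in either direction. KEAP1 had effects of -0.04 ± 0.15 and -0.13 ± 0.15, HMOX1 of 0.13 ± 0.16 and 0.04 ± 0.16, and TXNRD1 of -0.10 ± 0.16 and -0.00 ± 0.16.

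Of the scarce members, AKR1C1 had 9 counts over the TPC-1 control libraries and 2 over the siRNA libraries, a ratio of 0.197 with an exact 95% interval of 0.0207 to 0.953 for counting error only, so the fitted effect of -2.14 ± 0.73 rests on 11 reads. In K1, where it is counted well, AKR1C1 had 329, 261 and 201 counts with control siRNA and 160, 241 and 210 with TRIM35 siRNA (-0.23 ± 0.18, 95% interval -0.62 to 0.16). AKR1B10 had effects of -0.50 ± 0.35 in TPC-1 and -0.48 ± 0.64 in K1, and SRXN1 of -0.50 ± 0.38 and 0.40 ± 0.42. The widest of these 4 effects' 95% intervals, that of AKR1B10 in K1, ran from -1.85 to 0.89. Groups without overlap were seen for AKR1C1 in TPC-1 (all siRNA libraries lower) and for NFE2L2 in K1 (all higher, 13.81 to 14.38 against 12.62 to 13.59 FPKM), 1 of 9 genes in each line, beside 5.49% and 5.07% of all genes. Of the 84 other pathway genes, 0 were called in either line.

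**Figure D5:**
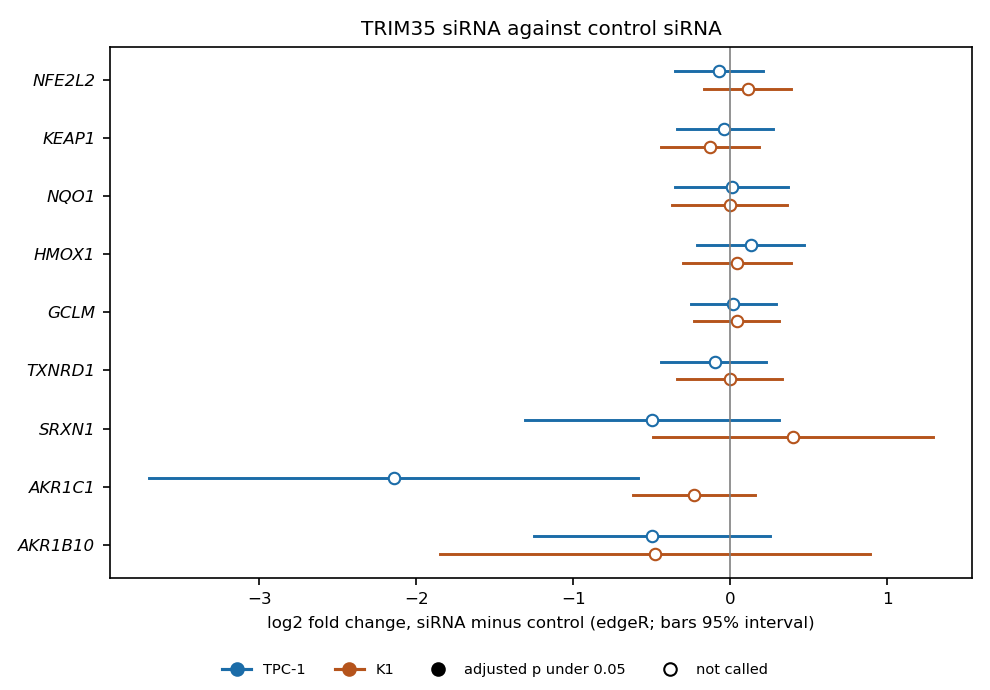
Log2 fold change of TRIM35 siRNA minus control siRNA (horizontal axis) for each gene in TPC-1 and in K1; points are edgeR estimates and bars are 95% intervals. No point is called, and only the TPC-1 interval of AKR1C1, which rests on 2 against 9 counts, does not reach 0.

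TPC-1 libraries with the same number varied together across the siRNA groups. In both TPC-1 groups, TXNRD1 and NFE2L2 were lowest in library 1 and highest in library 3, and KEAP1 and HMOX1 were highest in library 1 and lowest in library 3. TXNRD1 thus ranged from 78.72 to 105.15 FPKM among the control libraries alone, wider than its mean difference between the siRNA groups. With the library number as a block, the TPC-1 effect was -0.11 ± 0.11 for TXNRD1 and -0.08 ± 0.10 for NFE2L2, and no member was called. K1 libraries of the same number did not deviate together, but K1 libraries varied together in reverse order. Deviations from group means correlated at 0.834 between control library 1 and siRNA library 3. They correlated at 0.802 between control library 3 and siRNA library 1. Same-numbered K1 libraries correlated at -0.802, 0.086 and -0.829.

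The genes whose levels followed the members most closely over the 12 libraries are given as a description, with Pearson's r of log2 CPM and no test, since the libraries share 2 lines and each member was compared with 6316 or 6317 genes. They were HBEGF for AKR1C1 (r = 1.00), HSPA14 for AKR1B10 (0.99), ATP1B1 for HMOX1 (0.99), VAPB for TXNRD1 (0.99), SLC30A9 for NFE2L2 (0.99), MRPL28 for KEAP1 (0.98), TMED7 for GCLM (0.93) and BAG6 for SRXN1 (0.93). The gap between the lines enters these values, most of all for AKR1C1 and AKR1B10. After group means were subtracted, which leaves the variation among libraries of a group, the closest were ACAT2 for NQO1 (0.99), DDX18 for NFE2L2 (0.99), TSN for GCLM (0.99), USP16 for TXNRD1 (0.98), MAGEF1 for HMOX1 (0.98), KIAA2013 for KEAP1 (0.97), PHACTR4 for SRXN1 (0.97), WDR41 for AKR1C1 (0.94) and NDUFB9 for AKR1B10 (0.92). Only genes above a set mean FPKM were candidates, so SRXN1, AKR1C1 and AKR1B10, which lay below it, could not be the closest to any member. None of the remaining members was the closest to another on either measure.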

How the data were processed

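RNA was isolated with TRIzol and reverse transcribed from random primers, per the labels' protocols. The submitters' processing notes name cutadapt 1.9.1 and the build hg38; aligner, counter, annotation release and strand setting were not given in the sources used here. Deposited was 1 table of the authors' raw read counts and FPKM values, the latter equal to count over gene size and summed counts.

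The counts were fitted in edgeR 4.0.16 (R 4.3.3). filterByExpr (minimum count 10) kept 17447 genes; the rest held 0.0838% to 0.2% of the counts. After TMM scaling, 1 quasi-likelihood fit over the 12 libraries (8 residual degrees of freedom) gave every comparison, with Benjamini-Hochberg adjustment over all genes tested. SE is the size of the log2 fold change over the root of F, and intervals are at 95%. Alternatives were RLE and upper-quartile scaling, no filter, DESeq2 1.42.0, limma 3.58.1 on log2(FPKM + 0.1) and log2(FPKM + 1) of genes reaching 1 FPKM, a replicate block, only the groups compared, and leaving out each library. The fit was tested on simulated data. Exact intervals and the floor of 3 counts cover counting error only.

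Deviations of same-numbered libraries from their group means correlated at 0.39 to 0.84 in TPC-1. They correlated at -0.83 to 0.09 in K1 and -0.51 to 0.58 between the lines. The main fit used no pairs. For the siRNA effects and their difference, the replicate block held terms for the library number within each line, K1 included. For the line differences those terms were shared by both lines.

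Members, the 8 pathway lists and the 5 marker lists were chosen with earlier results of these data known. Named are the members, TRIM35, family counterparts and up to 4 genes of each pathway list by adjusted p in the line comparison. The gene most alike each member on 2 measures is named too. MAFF, MAFG, MAFK, SQSTM1, TXN, GPX4, PGD, FTL, GSTM2 and ALDH1A1 were added after their values were seen. Some genes that this rule names are not reported here. Promoters are from RefSeq and transcript words from GENCODE 29.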

Additional observations from a re-analysis of the deposited data

How the results depend on the processing

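Over the alternatives, 6 to 8 of the 9 genes were called between the lines in control libraries and 6 to 7 in siRNA libraries when 1 library was left out, and none was called for the siRNA in any. NQO1, HMOX1, TXNRD1, SRXN1, AKR1C1 and AKR1B10 stayed called in control libraries in every alternative that could test them. SRXN1 was not in the limma fits. AKR1C1 and AKR1B10 passed the filter through 1 line only, so their staying called supports nothing. NFE2L2, KEAP1 and GCLM were not called throughout. The block changed no member's call: 8 and 6 members between the lines, and 0 for the siRNA. The median of all genes between the lines was 0.06 under TMM, 0.10 under RLE and DESeq2, 0.20 under upper-quartile scaling and 0.25 with no filter. Between the lines, CAT turned to 0.01 (RLE and DESeq2), 0.12 (upper-quartile), 0.08 and 0.07 (limma), and TXNRD3 to 0.07 (upper-quartile) and 0.02 (both limma fits). In K1, the siRNA effects of NQO1 and TXNRD1 turned to 0.01 (RLE, DESeq2) and 0.00 (upper-quartile). For the difference in siRNA effects, GCLM turned to -0.01 and AKR1B10 to -0.00 with no filter, and AKR1C1 to -0.05 and -0.11 in the limma fits. Genes called for the siRNA numbered 2 in TPC-1 (no filter, DESeq2), 2 in K1 (no filter), and 4 (no filter) and 2 (DESeq2) for the difference, which ran from 0 to 1 with 1 library left out (1 without K1 control library 3 or without library 3 of TPC-1 siRNA); the cause was not tested.

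Leaving out 1 library moved siRNA effects near 0 across it: in TPC-1, NFE2L2 from -0.16 to 0.07, KEAP1 from -0.08 to 0.05, NQO1 from -0.08 to 0.08 and TXNRD1 from -0.20 to 0.06; in K1, KEAP1 from -0.22 to 0.03, NQO1 from -0.20 to 0.14, HMOX1 from -0.08 to 0.12, GCLM from -0.09 to 0.13 and TXNRD1 from -0.06 to 0.07. For the difference, KEAP1 ran from -0.19 to 0.05, NQO1 from -0.22 to 0.12, HMOX1 from -0.22 to 0.03, GCLM from -0.12 to 0.10, TXNRD1 from -0.06 to 0.20 and AKR1B10 from -0.26 to 0.37. Between the lines, SRXN1 ran from -0.77 to 0.03 (siRNA libraries), TXNRD3 from -0.20 to 0.11 and CAT from -0.07 to 0.02. The fit of only the groups compared was not run for the difference. Counts of 0 to 50 per library limit SRXN1, AKR1B10 and, in TPC-1, AKR1C1.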
